A study of Danio rerio with 12 samples.

Results

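The genes described here are 10 that mark the enveloping layer and the periderm of the zebrafish embryo: the keratins krt4, krt5, krt8 and krt91, the annexins anxa1b and anxa1c, the plakins evpla and ppl, the claudin cldne and the transcription factor gene grhl3. They were chosen by symbol, as the rows of the deposited count table whose Ensembl identifier carries that symbol in the zebrafish gene name table, and each symbol matched 1 of the 32520 genes in the table. The genes were chosen with earlier results of these data known. All 10 passed the filter on low counts, which kept 21400 genes.

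RNA came from whole embryos of the TU strain at 10 hours post fertilization (hpf), the tailbud stage. Embryos had received either 1 ng of a control morpholino or 1 ng of a tif1γ morpholino, an antisense oligonucleotide against the start codon of the transcriptional regulator tif1γ (gene symbol trim33), and every group was an injected one. From 5.3 to 10 hpf each kind was kept in 7 µM leflunomide, a drug that blocks DHODH and with it the making of pyrimidines, or in the same amount of its solvent DMSO. The 4 groups (control in DMSO, control in leflunomide, tif1γ in DMSO, tif1γ in leflunomide) had 3 libraries each, made from pools for which the labels give 109 snap-frozen embryos. A pool mixes all cells of the embryo, so fewer cells of a type and less RNA per cell cannot be told apart. Nothing in the labels says that replicates came from separate clutches, so the p-values measure the spread between these libraries, which may be technical.

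The enveloping layer (EVL) is the outermost epithelium of the fish embryo. It is set aside at blastula stages, is pulled over the yolk during epiboly with its margin anchored to the yolk syncytial layer, and persists as the periderm, the temporary outer covering of the skin. Simple epithelial keratins form its intermediate filaments, plakins such as periplakin and envoplakin tie filaments to the cell cortex and to desmosomes, claudins seal its tight junctions, and the grainyhead-like factor Grhl3 acts with Klf17 in the program that differentiates it. Tailbud stage is the end of epiboly, when the layer has just closed over the yolk.

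The libraries held 27574593 to 32088082 counts. The 10 genes together took 1.14% to 1.29% of the counts in each library, and no library had fewer than 105 counts for any of them. Levels are given as CPM, counts per 1000000 counts of a library size scaled by edgeR's TMM factor. Transcript lengths were not used, so levels are compared within a gene and not between genes. The targeted gene, trim33, was at 74.9 ± 5.03 CPM in control and 380 ± 12.5 CPM in tif1γ embryos in DMSO (SD, n = 3), a log2 difference of 2.34 ± 0.06 (SE, edgeR adjusted p = 4.98e-15). A morpholino that blocks translation need not lower the transcript it targets, so this level does not measure the knockdown. Every test below is edgeR's quasi-likelihood test over all 21400 genes with Benjamini-Hochberg adjustment, and a gene is called at an adjusted p under 0.05. A replicate block is the same test with the replicate number of the labels as a term. Leaving out 1 library also changed the calls over all genes. They were 5472 to 6979 in the knockdown in DMSO (7012 with all 12 libraries) and 3903 to 5289 in the knockdown in leflunomide (5094). For leflunomide in control embryos they were 3107 to 4641 (4695). Where groups are said not to overlap, the share of all genes that do the same is not given. Such statements describe the printed values only and do not set these genes apart from others.

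Knockdown of tif1γ in DMSO lowered part of this gene set and raised another. Among the 10 genes 6 fell (krt5, krt91, anxa1b, anxa1c, evpla and ppl) and 2 rose (cldne and grhl3), where 17.2% of all genes tested fell and 15.6% rose, 32.8% in all. The level of ppl fell by 8.04%, the smallest of the 6 called falls, and that of krt91 fell by 70.9%, the largest. The rises were 1.36-fold for cldne and 1.31-fold for grhl3. The median log2 change of the 10 was -0.37, against 0.0013 over all genes tested. With the replicate block krt4 and krt8 were called lower as well, which made 10 of 10 where that model called 42.2% of all genes. With library totals in place of TMM 2 of the 10 rose and 5 fell, and the split over all genes went from 3330 higher and 3682 lower to 4306 higher and 2888 lower.

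**Figure D1:**
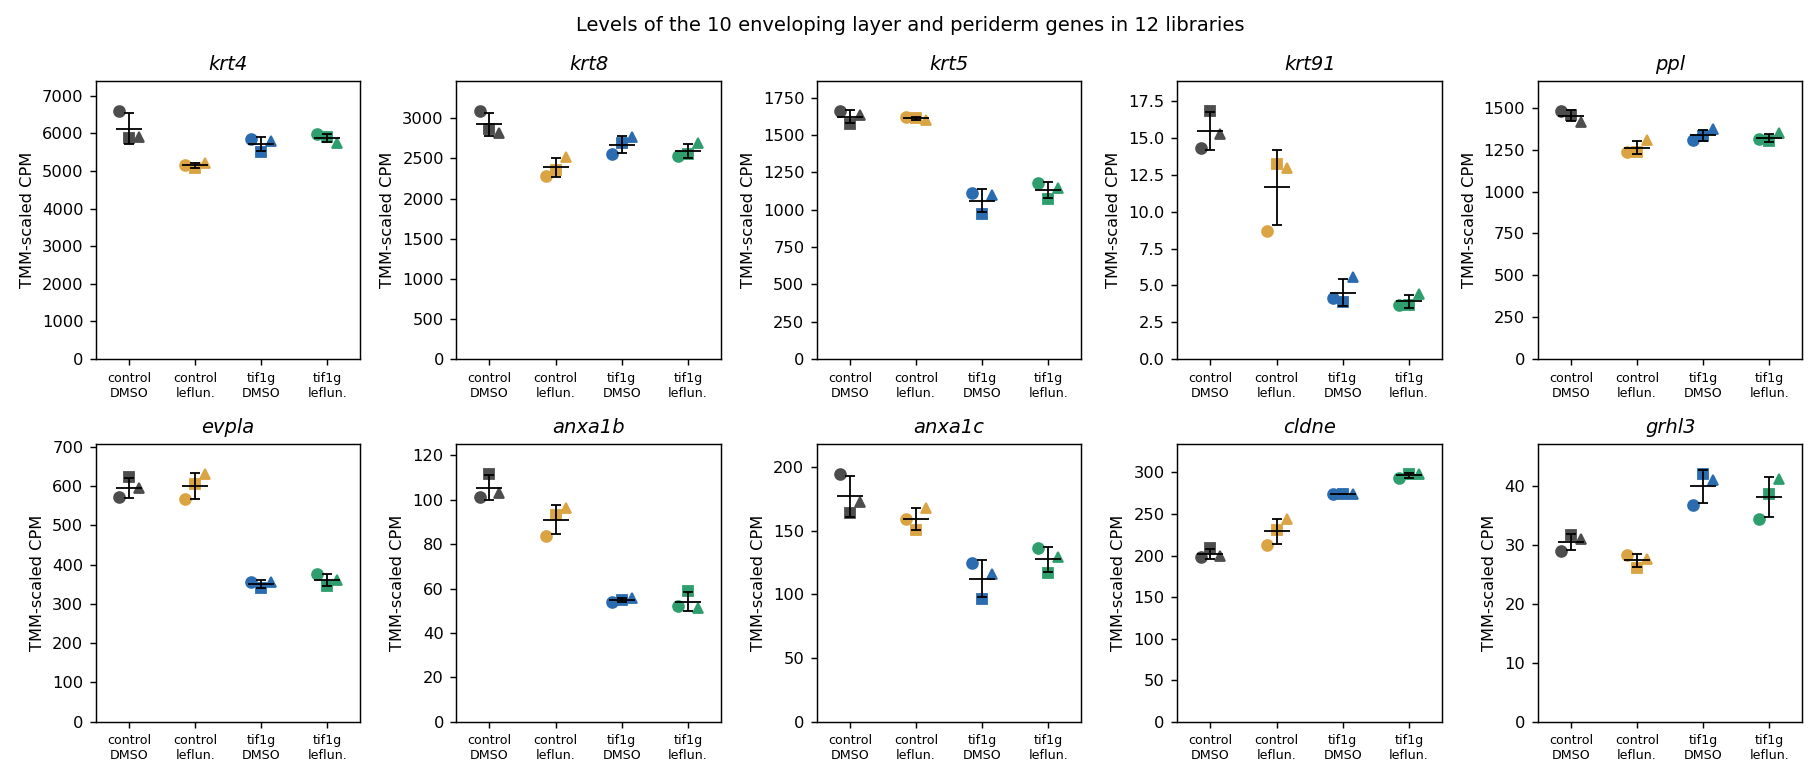
TMM-scaled CPM (vertical axes, each from 0) of the 10 genes in the 12 libraries, by group; circles, squares and triangles are replicates 1, 2 and 3, and the black bars are the mean and SD of 3 libraries. krt5, krt91, evpla, anxa1b and anxa1c lie lower in both tif1γ groups than in both control groups, and cldne and grhl3 lie higher. The share of all genes that separate in this way is not given here, and 32.8% of all genes tested were called in the knockdown in DMSO.

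The keratins did not move alike. krt5, a type II keratin of the EVL, was at 1663, 1575 and 1636 CPM in control embryos and at 1114, 972 and 1098 CPM in tif1γ embryos in DMSO. The groups did not overlap, and krt5 fell by 34.7% (log2 -0.61 ± 0.05, SE, edgeR adjusted p = 9.75e-08). krt91, a type I keratin and the least counted of the 4 keratins, was at 14.3, 16.9 and 15.3 CPM in control embryos and at 4.13, 3.85 and 5.54 CPM in tif1γ embryos. Its libraries held 426 to 479 counts against 111 to 157, and the level was 3.44-fold lower (log2 -1.78 ± 0.17, adjusted p = 2.96e-07, edgeR).

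The most heavily counted keratin, krt4, which is widely used as an EVL and periderm marker, gave a much smaller difference. It was at 6599, 5864 and 5905 CPM in control embryos and at 5837, 5502 and 5796 CPM in tif1γ embryos. The lowest control library lay just above the highest tif1γ library, and the log2 difference of -0.10 ± 0.05 did not pass (adjusted p = 0.109, edgeR), though it did with the replicate block (adjusted p = 0.048). It also passed without control DMSO replicate 2 (adjusted p = 0.0479). krt8, a simple epithelial type II keratin, ran at 2821 to 3093 CPM against 2560 to 2767 CPM, a log2 difference of -0.13 ± 0.05 (edgeR adjusted p = 0.0547, and 0.0145 with the replicate block). Leaving out replicate 3 of control DMSO (adjusted p = 0.0461), control leflunomide (0.0492) or tif1γ DMSO (0.0499) also brought krt8 past the threshold.

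A ratio within a library does not depend on how libraries are scaled. For every 100 counts of krt4, control libraries in DMSO held 25.2 to 27.7 counts of krt5 and tif1γ libraries 17.7 to 19.1. The same measure for krt8 was 46.9 to 48.8 and 43.9 to 48.9, which overlapped. Of the counts of the 10 genes combined, krt4 made up 45.4% to 47.3% in control libraries and 48.7% to 50.0% in tif1γ libraries.

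Both annexins fell. Annexins are calcium-dependent phospholipid-binding proteins of membranes, and anxa1b and anxa1c are expressed in the outer layer of the embryo. anxa1b was at 101, 112 and 103 CPM in control embryos and at 54.1, 54.9 and 55.8 CPM in tif1γ embryos. The 3 tif1γ libraries lay within 2 CPM of each other, well under every control library, and the fall was 47.9% (log2 -0.94 ± 0.07, SE, edgeR adjusted p = 9.27e-09). anxa1c went from 195, 164 and 173 CPM to 125, 96.6 and 116 CPM, a fall of 36.5% (log2 -0.66 ± 0.09, adjusted p = 5.57e-05, edgeR).

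The plakins differed in size of change. evpla, which encodes an envoplakin, was at 572, 622 and 594 CPM in control embryos and at 356, 339 and 356 CPM in tif1γ embryos. The groups stood far apart for a fall of 41.2% (log2 -0.77 ± 0.05, SE, edgeR adjusted p = 7.75e-09). ppl, which encodes periplakin, the partner of envoplakin in mammalian skin, was at 1482, 1459 and 1418 CPM against 1306, 1329 and 1374 CPM. Its log2 change of -0.12 ± 0.04 passed narrowly (adjusted p = 0.0407, edgeR). That call was lost with scaling by library totals (0.375) and without replicate 1 or 2 of control DMSO, replicate 1 or 2 of tif1γ DMSO, replicate 2 of control leflunomide or any replicate of tif1γ leflunomide (up to 0.134). The 95% interval of the change was -0.88 to -0.65 for evpla and -0.21 to -0.03 for ppl, and the difference between the 2 genes was not itself tested.

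The junction gene and the transcription factor gene rose. cldne, a tight junction claudin of the EVL, was at 198, 209 and 199 CPM in control embryos and at 274, 274 and 274 CPM in tif1γ embryos. Every tif1γ library lay above every control library (log2 0.44 ± 0.05, SE, edgeR adjusted p = 4.33e-06). grhl3 was at 29.0, 31.6 and 30.9 CPM and at 36.7, 42.1 and 40.9 CPM, again without overlap (log2 0.39 ± 0.08, adjusted p = 9.75e-04, edgeR). Thus the regulator rose while most of the keratin, annexin and plakin genes it is listed with fell.

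The knockdown was also compared between the leflunomide groups. Of the 10 genes 5 were lower in tif1γ than in control embryos (krt5, krt91, anxa1b, anxa1c and evpla) and 3 were higher (krt4, cldne and grhl3), where 11.8% of all genes fell and 12% rose, 23.8% in all. The median log2 change of the 10 was -0.13, against 0.0057 over all genes. The comparisons in DMSO and in leflunomide share no library. They do share an estimate of the spread, and same-numbered libraries deviated together, so they are not fully independent.

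krt5 was at 1625, 1612 and 1602 CPM in control and at 1176, 1076 and 1148 CPM in tif1γ embryos in leflunomide (log2 -0.51 ± 0.05, edgeR adjusted p = 1.31e-06). krt91 was at 8.72, 13.3 and 13.0 CPM against 3.69, 3.68 and 4.45 CPM (log2 -1.57 ± 0.17, adjusted p = 2.31e-06, edgeR). For both keratins the 2 kinds of embryo did not overlap. anxa1b was at 83.6, 93.2 and 96.1 CPM against 52.0, 59.0 and 51.2 CPM (log2 -0.75 ± 0.07, adjusted p = 2.01e-07, edgeR). evpla was at 566, 604 and 632 CPM against 376, 346 and 361 CPM (log2 -0.73 ± 0.05, adjusted p = 1.47e-08, edgeR). These 4 genes were thus lower in tif1γ embryos with and without the drug.

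anxa1c showed a smaller fall in leflunomide, from 159, 151 and 168 CPM to 137, 117 and 130 CPM (log2 -0.32 ± 0.09, edgeR adjusted p = 0.0178). That call was lost without tif1γ leflunomide replicate 2 (adjusted p = 0.08) or control leflunomide replicate 3 (0.0689). cldne was at 213, 231 and 244 CPM in control and at 293, 298 and 299 CPM in tif1γ embryos (log2 0.37 ± 0.05, adjusted p = 4.06e-05, edgeR). grhl3 was at 28.3, 26.0 and 27.7 CPM against 34.4, 38.6 and 41.1 CPM (log2 0.48 ± 0.08, adjusted p = 2.28e-04, edgeR). Neither gene's groups overlapped. krt4 was at 5152, 5077 and 5208 CPM in control and at 5971, 5911 and 5750 CPM in tif1γ embryos, a rise of 14.2% (log2 0.19 ± 0.05, adjusted p = 0.00545, edgeR). krt8 and ppl had log2 differences of 0.12 ± 0.05 (adjusted p = 0.0988, and 0.0327 with the replicate block) and 0.07 ± 0.04 (adjusted p = 0.306). With the block 9 of the 10 were called, where that model called 33.7% of all genes.

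**Figure D2:**
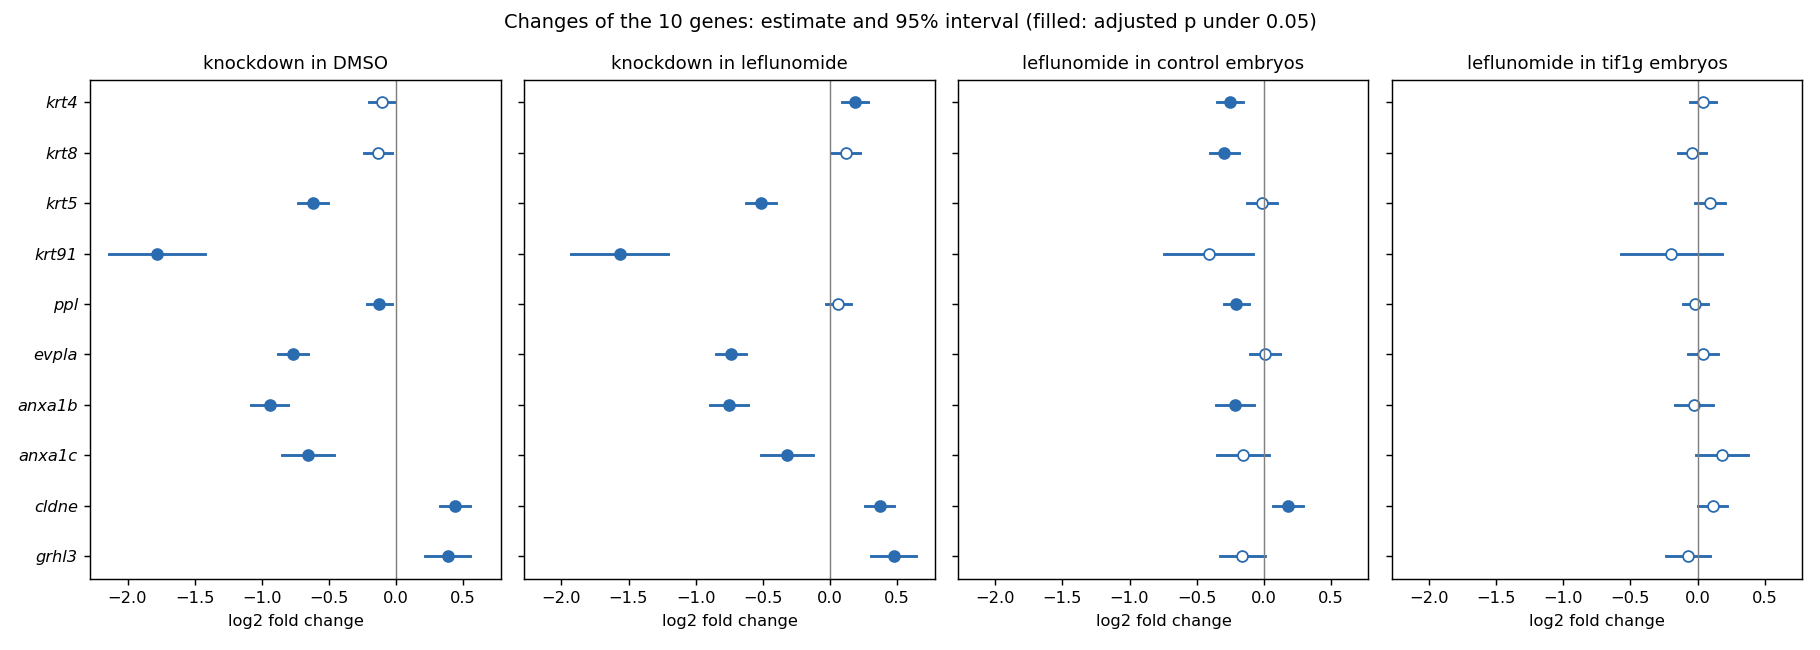
log2 fold change (horizontal axes) of the 10 genes in 4 comparisons, with the 95% interval; filled points have an edgeR adjusted p under 0.05 over all genes tested. The changes of krt5, krt91, evpla, anxa1b, cldne and grhl3 lie on the same side of 0 in both knockdown panels, and in the panel of leflunomide in tif1γ embryos no point is filled.

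Leflunomide alone was tested in the control embryos, and the 3 control libraries in DMSO serve both here and in the knockdown in DMSO. In control embryos 4 of the 10 genes were lower in leflunomide than in DMSO (krt4, krt8, anxa1b and ppl) and 1 was higher (cldne), where 13.1% of all genes fell and 8.87% rose, 21.9% in all. The median log2 change was -0.18, against 0.024 over all genes. krt4 went from 6599, 5864 and 5905 CPM to 5152, 5077 and 5208 CPM, a fall of 16.0% that left no overlap (log2 -0.25 ± 0.05, SE, edgeR adjusted p = 8.18e-04). krt8 fell by 18.4%, from 3093, 2862 and 2821 CPM to 2285, 2359 and 2519 CPM (log2 -0.29 ± 0.05, adjusted p = 4.53e-04, edgeR). Both keratins had every leflunomide library under every DMSO library.

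The other calls for leflunomide in control embryos were less firm. ppl ran at 1238 to 1307 CPM in leflunomide against 1418 to 1482 CPM in DMSO (log2 -0.20 ± 0.04, edgeR adjusted p = 0.00247), and was lost with library totals (0.211). anxa1b had a log2 change of -0.21 ± 0.07 (adjusted p = 0.0268, edgeR), lost with library totals (0.437) and without control leflunomide replicate 1 (0.142), control DMSO replicate 2 (0.114) or control leflunomide replicate 2 (0.0517). cldne had a log2 change of 0.18 ± 0.05 (adjusted p = 0.0183, edgeR), lost without control DMSO replicate 1 (0.054) or 3 (0.0623) and without control leflunomide replicate 2 (0.0653) or 3 (0.106). With the call count at 5, leaving out control leflunomide replicate 2 gave 3, while the calls over all genes went from 4695 to 3107.

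Of the other 5 genes, krt5 and evpla had log2 changes of -0.01 ± 0.05 and 0.01 ± 0.05 under leflunomide in control embryos, with 95% intervals of -0.12 to 0.10 and -0.10 to 0.12. The log2 changes of krt91, anxa1c and grhl3 were -0.41 ± 0.16, -0.15 ± 0.09 and -0.16 ± 0.08 (edgeR adjusted p = 0.0727, 0.255 and 0.177). With the replicate block krt91 (adjusted p = 0.00608) and anxa1c (0.0206) were called lower, so 7 of 10 were called where that model called 31.4% of all genes. For every 100 counts of krt4, libraries of control embryos held 30.8 to 31.8 counts of krt5 in leflunomide against 25.2 to 27.7 in DMSO.

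The scaling of the libraries bears on this comparison. The TMM factors were 0.926 to 0.958 in control DMSO and 1.03 to 1.05 in control leflunomide libraries. With library totals in place of TMM the median log2 change of all genes moved from 0.024 to 0.16, and the split of all calls went from 1899 higher and 2796 lower to 3538 higher and 1220 lower. Under that scaling the log2 change of krt4 was -0.12 (edgeR adjusted p = 0.0468) and that of krt8 -0.16 (0.0155), both still called lower, and that of cldne was 0.31 (4.75e-04).

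In tif1γ embryos leflunomide moved none of the 10 genes past the threshold. There 0.617% of all genes tested were called, and the median log2 change was 0.012 for the 10 genes and 0.010 over all. At an unadjusted p under 0.05 edgeR gave 1 of the 10, where 13.9% of all genes were under it. After adjustment DESeq2 called 0 of the 10 and 574 genes in all. With the replicate block anxa1c was called higher (log2 0.19 ± 0.05, adjusted p = 0.0195), 1 of 10 where that model called 7.09% of all genes. The 95% intervals were -0.06 to 0.14 for krt4, -0.15 to 0.06 for krt8, -0.11 to 0.07 for ppl and -0.17 to 0.12 for anxa1b. They did not reach the log2 falls estimated in control embryos (-0.25, -0.29, -0.20 and -0.21). Those estimates have errors of their own, so this does not test the difference. The direct test, given next, called none of these 4 genes in edgeR without the block.

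The test of whether the knockdown effect differed between leflunomide and DMSO called no gene of the 21400 (0%), and 2560 genes (12%) were at an unadjusted p under 0.05, of which 4 belong to the 10. Those 4 were krt4 (log2 0.29 ± 0.07, edgeR adjusted p = 0.121), krt8 (0.25 ± 0.07, adjusted p = 0.173), anxa1c (0.34 ± 0.13, adjusted p = 0.286) and ppl (0.19 ± 0.06, adjusted p = 0.214). With the replicate block 3 of the 10 passed, where 4.99% of all genes did: krt4 (adjusted p = 0.0036), krt8 (0.014) and anxa1c (0.00594), with ppl at 0.0508. DESeq2 called krt4 alone of the 10 (adjusted p = 0.0188), where it called 277 genes, 3% of those for which it gives an adjusted p.

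Set side by side by replicate number, krt4 in tif1γ relative to control embryos had log2 ratios of -0.18, -0.09 and -0.03 in DMSO and of 0.21, 0.22 and 0.14 in leflunomide. krt8 had -0.27, -0.09 and -0.03 in DMSO and 0.15, 0.11 and 0.10 in leflunomide. ppl had -0.18, -0.13 and -0.05 in DMSO and 0.08, 0.07 and 0.05 in leflunomide. With TMM scaling the sign of these 3 genes turned in each of the 3 numbers. With library totals ppl still turned in each, but krt4 and krt8 did not turn in number 3. There krt4 was at 5654 CPM in control and 5670 CPM in tif1γ embryos in DMSO, and krt8 at 2702 and 2707 CPM. Under TMM anxa1c was lower in all 3 numbers and by less in leflunomide. Its ratios were -0.64, -0.76 and -0.58 in DMSO and -0.22, -0.36 and -0.37 in leflunomide.

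**Figure D3:**
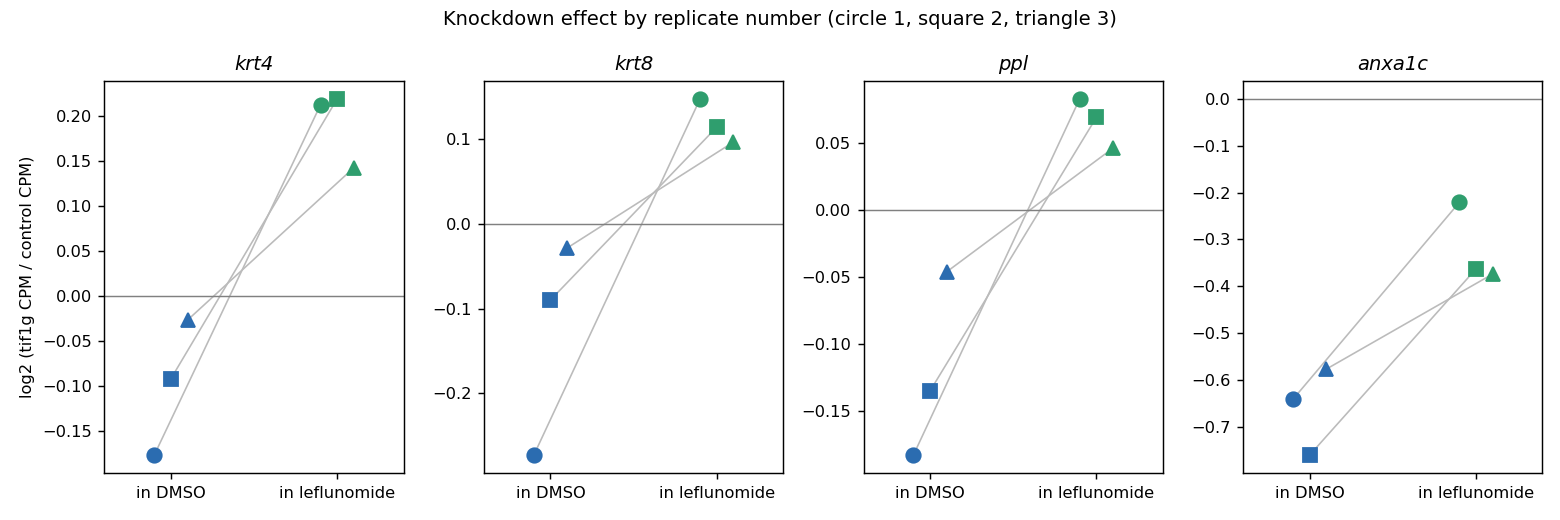
log2 ratio of tif1γ to control CPM (vertical axes) for krt4, krt8, ppl and anxa1c, in DMSO (blue) and in leflunomide (green), with grey lines joining libraries of the same replicate number. With the TMM scaling used here krt4, krt8 and ppl lie below 0 in DMSO and above 0 in leflunomide for each number.

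The summed level of the 10 genes was highest in control embryos in DMSO, at 12895 to 13947 CPM. It was 11359 to 11816 CPM in control embryos in leflunomide, 11304 to 11883 CPM in tif1γ embryos in DMSO and 11703 to 11886 CPM in tif1γ embryos in leflunomide. These last 3 ranges overlap. The sum without krt4 was 6991 to 7348 CPM, 6207 to 6608 CPM, 5802 to 6087 CPM and 5792 to 6078 CPM in the same order, and both tif1γ groups lay under both control groups. With library totals in place of TMM the sums of all 10 were 12294 to 12911 CPM, 11693 to 12115 CPM, 11363 to 11635 CPM and 12018 to 12210 CPM, again highest in control embryos in DMSO.

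After centring each library on its group mean, the log2 levels of krt8 and ppl had a Pearson r of 0.91 over the 12 libraries and those of krt5 and anxa1c an r of 0.89. These are descriptions, and the points share library and depth. Likeness to the mean standardized level of the 10 was searched among tested genes with a symbol. Symbols beginning with si:, zgc:, im:, wu:, loc, cabz, bx, cu, ct, cr, fp or al were left out, which drops ordinary gene names too. That mean combines genes that ran opposite ways, such as krt5 with cldne (r -0.89, not centred) and with grhl3 (r -0.93). Of the genes searched, those most like it in log2 level were pomp, eci1, sub1, skp1 and xrcc1 (r from 0.955 to 0.978 over the 12 libraries, which include the group differences). After the same centring they were bud31, gnptg, ung, stam and atp5pf (r from 0.931 to 0.946).

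The families to which the 10 genes belong moved unevenly in the knockdown in DMSO. Of 12 further keratin genes tested 6 fell and 1 rose, with a median log2 change of -0.31, where 17.2% of all genes fell and 15.6% rose. The call of the 1 that rose was lost without any replicate of control DMSO or control leflunomide, or replicate 2 or 3 of tif1γ DMSO. krt92 fell by 0.77 ± 0.08 on the log2 scale (edgeR adjusted p = 1.26e-06), krt99 by 0.53 ± 0.07 (3.22e-05), krt18a.1, a type I keratin, by 0.26 ± 0.04 (1.04e-04) and cyt1 by 0.73 ± 0.15 (0.00363). In the RefSeq annotation of GRCz12tu, used here for gene order only, krt91 follows krt92, cyt1l, cyt1 and krt17 without another coding gene between them. cyt1l and krt17, looked at for their place beside krt91, fell by 0.57 ± 0.13 (adjusted p = 0.00482) and 0.76 ± 0.20 (0.018), the latter not without replicate 1 or 2 of tif1γ DMSO or replicate 3 of control DMSO (up to 0.0652). krt5, krt8 and krt18a.1 likewise stand next to each other, and there krt5 and krt18a.1 fell while krt8 did not pass.

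In the annexin family 3 of 13 further genes fell and 1 rose, a share (30.8%) near the 32.8% called over all genes. The 3 became 1 without tif1γ DMSO replicate 2 or 3, and the 1 that rose was not called without replicate 2 or 3 of control DMSO, replicate 2 or 3 of tif1γ DMSO or replicate 2 of tif1γ leflunomide. The 3 that fell became 2 without control DMSO replicate 2 or tif1γ leflunomide replicate 2. They became 5 with the replicate block, which called 42.2% of all genes. anxa1d, next to anxa1c and anxa1b in the same annotation, fell by 1.15 ± 0.15 on the log2 scale (edgeR adjusted p = 1.48e-05), so that these 3 neighbours were all lower. anxa2 was lower by more, with a wide error (log2 -2.15 ± 0.57, adjusted p = 0.0202), and its call was lost without control DMSO replicate 1 or tif1γ DMSO replicate 2 or 3 (up to 0.0739). Reads shared by such close copies could be split between them, and no source used here says how the counting treated reads with several matches.

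Of 8 other plakin genes 3 fell and 1 rose, where 32.8% of all genes were called. With the replicate block, which called 42.2% of all genes, 5 were lower. Without control DMSO replicate 1 or tif1γ DMSO replicate 2 the counts were 2 and 0, and without control DMSO replicate 3 they were 3 and 0. eppk1, an epiplakin gene, went from 1248 to 514 CPM on average (log2 -1.28 ± 0.09, edgeR adjusted p = 3.55e-07), and pleca, a plectin gene, fell by 0.31 ± 0.08 (0.00599). Of 30 other claudin genes 9 rose and 6 fell, where 15.6% of all genes rose and 17.2% fell. With single libraries left out in turn 6 to 10 rose and 6 to 8 fell. Claudins thus went both ways. The neighbours of cldne did so too: cldnj rose (log2 0.77 ± 0.17, adjusted p = 0.00163), as cldne did, while cldnf (log2 -0.56 ± 0.08, 4.60e-05) and cldna (log2 -1.32 ± 0.29, 0.00192) fell, all 4 standing in a row in the GRCz12tu annotation. A gene with the symbol cldn5 (log2 -1.24 ± 0.16, 4.65e-05) and cldn30 (log2 -0.64 ± 0.11, 1.69e-04) also fell, while another gene with the symbol cldn5 was not called. cldn10e rose (log2 2.70, edgeR adjusted p = 5.71e-04).

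**Figure D4:**
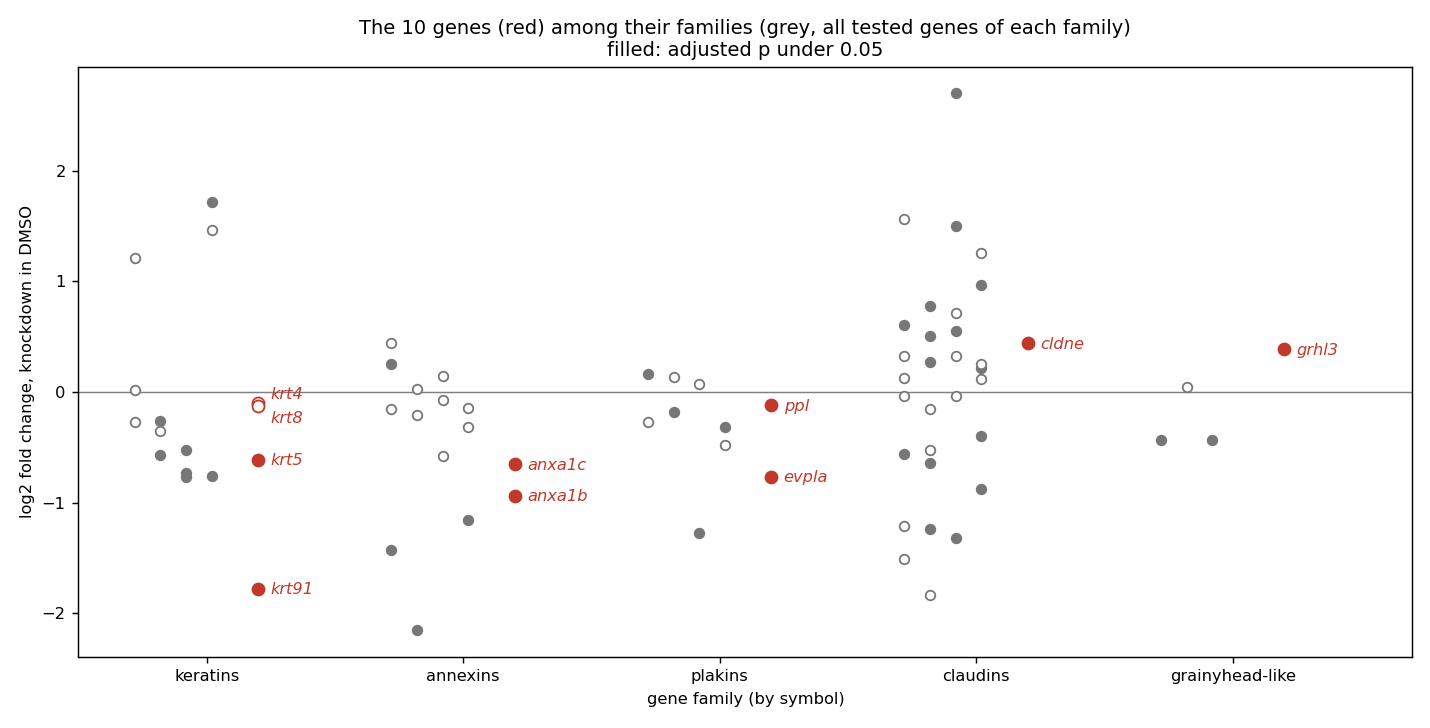
log2 fold change of the knockdown in DMSO (vertical axis) for the 10 genes (red, named) and for all other tested keratins, annexins, plakins, claudins and grainyhead-like genes (grey); filled points have an edgeR adjusted p under 0.05. Among the other keratins 6 of 12 fell and 1 rose, and among the other claudins 9 of 30 rose and 6 fell. Of all genes tested 17.2% fell and 15.6% rose.

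A list of 39 other tested EVL and periderm genes had 18 lower and 3 higher in the knockdown in DMSO. This list shares keratins, annexins and claudins with the families above, krt92, anxa1d and cldnf among them. Its counts are therefore not independent of theirs. In that comparison 17.2% of all genes fell and 15.6% rose, 32.8% in all, and the median log2 change of the 39 was -0.22. The 4 with the smallest p were krt92 and anxa1d, described above, pfn1, which encodes the actin monomer binding protein profilin (log2 -0.47 ± 0.07, edgeR adjusted p = 3.34e-05), and cldnf. In leflunomide 9 of the 39 fell and 5 rose with the knockdown, where 11.8% of all genes fell and 12% rose. With the replicate block, which called 33.7% of all genes, 13 fell and 9 rose. Leflunomide in control embryos gave 13 lower and 2 higher, where 13.1% of all genes fell and 8.87% rose. Library totals in place of TMM gave 4 lower and 3 higher, where 1220 of all genes were lower and 3538 higher. Leaving out control leflunomide replicate 2 gave 8 lower, where 1946 of all genes were lower. Lower there were cd9b, a tetraspanin gene (log2 -0.31 ± 0.05, adjusted p = 2.92e-04), krt18a.1 (-0.26 ± 0.04, 3.24e-04) and krt97 (-0.36 ± 0.06, 5.93e-04), and mid1ip1a was higher (log2 1.72 ± 0.18, 2.30e-04).

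Of 19 genes listed as regulators of the layer, 4 rose and 2 fell in the knockdown in DMSO. That share (31.6%) was near that of all genes (32.8%), and grhl3 itself comes on top of the 19. With the replicate block 6 rose and 4 fell, where 42.2% of all genes were called, and with library totals 5 rose and 0 fell. The count of those that fell became 0 without tif1γ DMSO replicate 2 or 3, and 1 without any replicate of control DMSO, replicate 2 or 3 of control leflunomide or replicate 2 of tif1γ leflunomide. klf4 rose by the most, from 3.09 to 6.21 CPM on average (log2 1.01 ± 0.19, edgeR adjusted p = 4.34e-04). klf17, which directs EVL and hatching gland differentiation in zebrafish, rose by 0.26 ± 0.07 (0.00645) and tfap2c by 0.34 ± 0.07 (0.00145). klf2b rose by 0.33 ± 0.11 (adjusted p = 0.0407), a call lost without replicate 1 or 3 of control DMSO, any replicate of control leflunomide, or replicate 2 or 3 of tif1γ DMSO (up to 0.161).

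The other grainyhead-like genes were tested in the same way. grhl2a and grhl2 had log2 changes of -0.43 ± 0.15 (edgeR adjusted p = 0.0363) and -0.44 ± 0.15 (0.0467). Library totals ended both calls (0.0878 and 0.0958), as did leaving out control DMSO replicate 3 or tif1γ DMSO replicate 2 or 3. The grhl2a call was also lost without control DMSO replicate 2, and that of grhl2 without replicate 1 of control DMSO, replicate 2 or 3 of control leflunomide or replicate 2 of tif1γ leflunomide (up to 0.126 and 0.161). grhl1 had a log2 change of 0.04 ± 0.06 (adjusted p = 0.623) in DMSO and was called higher in leflunomide (0.18 ± 0.06, edgeR adjusted p = 0.0325). That call was lost with library totals, with no filter on low counts, with only the 2 groups compared, without replicate 2 or 3 of control leflunomide or without any replicate of tif1γ leflunomide (up to 0.161). In DMSO ovol1a (-0.17 ± 0.07), ovol1b (0.21 ± 0.16), tfap2a (0.12 ± 0.06), tp63 (-0.19 ± 0.12), chuk (-0.09 ± 0.06), klf6 (-0.06 ± 0.06), klf2a (0.11 ± 0.22), foxi1 (0.23 ± 0.18), pou5f3 (0.59 ± 0.33), elf3 (0.65 ± 0.61) and cobll1a (0.07 ± 0.70) did not pass.

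Junction and cornified envelope genes went both ways. Of 36 tested 11 fell and 9 rose in the knockdown in DMSO, where 17.2% of all genes fell and 15.6% rose. Of 2 genes that carry the symbol tgm1, for transglutaminase 1, which crosslinks envelope proteins in mammalian skin, the one more highly counted fell from 36.2 to 13.7 CPM on average (log2 -1.40 ± 0.12, edgeR adjusted p = 9.55e-08). The other tgm1 gene fell too (log2 -0.66, edgeR adjusted p = 0.00242). The tight junction genes f11r.1 (log2 0.64 ± 0.07, 1.17e-06), cgnb (0.63 ± 0.07, 2.38e-06) and tjp3 (0.68 ± 0.10, 5.43e-05) rose, as cldne did. With the replicate block, which called 42.2% of all genes in either direction, 10 of 20 actomyosin and spreading genes fell. Without it, where 17.2% of all genes fell and 15.6% rose, 6 of the 20 (30%) fell and 0 rose. Among the 6 were the more highly counted of 2 vcl genes, for vinculin (log2 -0.57 ± 0.06, 7.62e-07), of 2 myh9 genes, for non-muscle myosin (-0.54 ± 0.08, 3.48e-05), and map4k4 (-0.34 ± 0.07, 6.45e-04). The other vcl gene fell too (log2 -0.90, edgeR adjusted p = 0.0104), a call lost without control DMSO replicate 3 (0.0611).

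Marker lists of other cells of the embryo were counted in the same way. In the knockdown in DMSO they are to be read against all genes, of which 17.2% fell and 15.6% rose, 32.8% in all. The gene lists can share genes with each other and with those above, so their counts are not independent. In the knockdown in DMSO 12 of 21 tested genes of the yolk syncytial layer, the tissue to which the EVL margin is anchored, fell and 1 rose. Their summed level was 11649 to 12773 CPM in control and 8391 to 9159 CPM in tif1γ embryos in DMSO, and 9336 to 10135 CPM and 8164 to 8660 CPM in leflunomide. The yolk syncytial genes hnf4b (log2 -0.70 ± 0.07, edgeR adjusted p = 2.61e-07) and apobb.1 (-0.87 ± 0.07, 2.62e-07) fell, and hnf4a rose (0.72 ± 0.10, 8.41e-05). In leflunomide 8 of the 21 fell and 4 rose with the knockdown, where 11.8% of all genes fell and 12% rose. The median log2 change of the 21 was -0.016. Leflunomide in control embryos lowered 14 of the 21, where 13.1% of all genes fell. The count was 6 under library totals, which called 1220 of the 21400 genes lower. It was 9 without control leflunomide replicate 1, where 2161 of all genes were lower.

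Of 8 hatching gland genes 5 fell and 1 rose in the knockdown in DMSO, with a sum of 526 to 531 CPM against 445 to 476 CPM; 3 fell without control DMSO replicate 1 or tif1γ DMSO replicate 2. Of 17 basal epidermis and non-neural ectoderm genes 2 rose and 1 fell (1277 to 1481 CPM against 1416 to 1550 CPM), a share of 17.6%. Of 16 neural plate genes 2 rose and 2 fell (1400 to 1541 CPM against 1467 to 1532 CPM), a share of 25%. With the replicate block, which called 42.2% of all genes, the basal list had 5 higher and 4 lower and the neural plate list 5 higher and 2 lower. With library totals the counts were 4 and 1 for the basal list and 4 and 2 for the neural plate list. Without control DMSO replicate 2 each of these lists had 4 higher and 2 lower, and the basal list had 2 lower without tif1γ DMSO replicate 2 or control DMSO replicate 3. Of 9 notochord genes 4 fell (510 to 570 CPM against 467 to 520 CPM). The 4 became 1 without control DMSO replicate 1 or tif1γ DMSO replicate 2, and 2 without replicate 3 of either DMSO group. Of 7 ionocyte genes 1 fell (264 to 288 CPM against 271 to 279 CPM), 2 with the replicate block or without control DMSO replicate 3, and 0 without control DMSO replicate 1 or tif1γ DMSO replicate 2 or 3. None of these marker genes was at 0 in every library of a group. The part of these other tissues in the changes of krt4, krt5, krt8, krt91, anxa1b, anxa1c, evpla, ppl, cldne and grhl3 was not tested.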

How the data were processed

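The deposited table holds raw read counts per Ensembl gene, which the authors made with HTSeq from reads aligned to GRCz11, with FastQC, cutadapt, TopHat2 2.0.11 and Cufflinks 2.2.1 also named, per the submitters' processing notes. Libraries were rRNA-depleted and directional, per the labels' protocols. The sources used here do not give the annotation release or the strand setting of the counting. From these counts, edgeR 4.0.16 (R 4.3.3) fitted 4 group means to all 12 libraries (filterByExpr, TMM, robust quasi-likelihood, 21400 genes tested), and CPM values use the TMM-scaled library sizes. Alternatives were DESeq2 1.42.0, other scalings, no filter, a replicate block, the compared groups alone and libraries left out. The script was tested on simulated data. Same-numbered libraries deviated together (correlations of deviations from group means 0.156 to 0.274 over 18 pairs, all above 0.1), so the numbers are taken to pair the libraries. The main fit does not use this pairing, and the replicate block does. The choice matters most for the difference between knockdown effects, called for 0 genes in the main fit and 1067 with the block. No 2 libraries of a group agreed within sampling noise (chi-square per degree of freedom 7.09 to 15.0). The 10 genes and the other gene lists were chosen with earlier results of these data known. Named genes beyond the 10 are, per list or family, up to 4 of smallest p in the knockdown in DMSO or in leflunomide in control embryos, the regulators except 1 that is not reported here, and neighbours of the 10. Gene symbols came from the gene name table, which covered 29201 identifiers.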

Additional observations from a re-analysis of the deposited data

Results flagged for a closer look

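For 4 of the 10 genes the test of whether the knockdown effect differed between DMSO and leflunomide had an unadjusted p under 0.05, as it had for 12% of all genes tested. The log2 difference was 0.29 for krt4, 0.25 for krt8, 0.34 for anxa1c and 0.19 for ppl, each meaning a higher tif1γ to control ratio in leflunomide than in DMSO. After adjustment over all genes edgeR called none of them without the block (adjusted p = 0.121, 0.173, 0.286 and 0.214). With the block krt4, krt8 and anxa1c passed and ppl did not (0.0508).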

How the results depend on the processing

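In the knockdown in DMSO 7 to 10 of the 10 genes were called under the alternatives, which called 4720 to 9031 genes in all. In the knockdown in leflunomide 7 to 9 of the 10 were called, and 3006 to 7215 genes in all. For leflunomide in control embryos the count of 5 became 3 with library totals and 3 with only the 2 groups compared. These called 4758 and 4022 genes in all, against 4695 in the main fit. With libraries or replicate numbers left out the count was 2 to 5, where 2114 to 4641 genes were called in all. For leflunomide in tif1γ embryos the count of 0 became 1 with the replicate block, which called 7.09% of all genes. For the difference between the knockdown effects it became 3 with the replicate block (1067 genes in all) and 1 with DESeq2 (277 in all). The replicate block changed no call of the 10 genes beyond those given with the results. Leaving a replicate number out of all groups also ended the calls of krt4 in the knockdown in leflunomide (edgeR adjusted p = 0.0663 without number 2), of anxa1c there (0.194 without number 3) and of ppl under leflunomide in control embryos (0.0647 without number 1 and 0.0606 without number 2). Fitting only the 2 groups compared ended the calls of ppl in the knockdown in DMSO (0.133) and of anxa1b (0.0514) and cldne (0.0518) under leflunomide in control embryos, and dropping the filter on low counts that of ppl (0.0622). The causes were not tested.

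Values close to 0 changed sign without being called. With library totals the log2 change of krt5 under leflunomide in control embryos was 0.12, the changes under leflunomide in tif1γ embryos were 0.0032 for krt8, 0.024 for anxa1b and 0.029 for ppl, and the difference between knockdown effects was -0.054 for evpla. DESeq2 gave -0.00096 for evpla under leflunomide in control embryos. With libraries or replicate numbers left out, krt5 ranged from -0.033 to 0.012 and evpla from -0.029 to 0.051 under leflunomide in control embryos. Likewise anxa1b ranged from -0.091 to 0.026 and ppl from -0.038 to 0.0023 under leflunomide in tif1γ embryos, and the difference between knockdown effects of evpla from -0.019 to 0.084. Depth is no limit for these genes, except that krt91 rests on 105 to 479 counts a library; 3 libraries a group limit every test.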
